A study of Mus musculus with 207 samples.

Results

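The lipid droplet is the organelle in which cells store triglyceride, and the 10 genes described here encode proteins that coat it, enlarge it or help it form. They are the perilipins Plin2, Plin3, Plin4 and Plin5, the Cide genes Cidea, Cideb and Cidec, the lipase inhibitor G0s2, and the fat storage-inducing transmembrane genes Fitm1 and Fitm2. The genes were listed by name, with earlier results of these data known. All 10 were found, with 1 identifier each, among the 55536 genes of the liver and jejunum count tables.

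RNA was sequenced from whole liver and jejunum of C57BL/6 mice fed 1 of 6 diets that crossed a protein source, labelled CAS or WPI and always at protein level 30, with 3 fat levels, FAT-20, FAT-40 and then FAT-55. The abbreviations stand, from what is known of this study, for casein and for whey protein isolate; no unit is attached to the protein or fat level in the labels. Age, sex and time on the diet are not given in the sources used here. In order of rising fat, each tissue had 11, 12 and 11 mice on CAS and 12, 12 and 12 mice on WPI, and by their identifiers the same 70 mice gave both tissues. For 1 mouse (CAS FAT-20 replicate 11) the library numbers of the 2 tissues differ, so its pairing is uncertain.

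As background, perilipins sit on the droplet surface and control how lipases reach the stored fat. Plin2 and Plin3 are found in most cells, Plin4 coats young droplets mainly in fat cells and muscle, and Plin5 belongs to tissues that burn fat. Cidea and Cidec move lipid from small droplets into larger ones and are fat cell genes that also appear in fatty liver, where Cidec is a known target of the nuclear receptor PPARg. Cideb, found in hepatocytes and enterocytes, helps to load lipoproteins with lipid. G0s2 blocks Pnpla2, the first lipase of triglyceride breakdown, and Fitm1 and Fitm2 are endoplasmic reticulum proteins needed for droplets to form.

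The stretches of DNA just upstream of 4 of these genes are shown. They were chosen by their liver results between FAT-20 and FAT-55 on CAS. There Cidec and Plin4 were called higher, Plin5 was called lower and Plin2 was not called. RefSeq promoter windows (build GRCm38.p6) were searched for 9 of the 10 genes. Cidea was left out of this search, so nothing is said here about its upstream bases. The letters are the gene's strand from 5′ to 3′, begin 250 bases before the RefSeq start and stop where the first exon of GENCODE M21 begins or at the start itself. They cover chr6:113435761-113436010 for Cidec, chr17:56109804-56110032 for Plin4, chr4:86670061-86670309 for Plin2 and chr17:56117597-56117798 for Plin5, all on the minus strand. Plin4 and Plin5 are neighbours on chromosome 17 (GRCm38, 56100591 to 56109803 and 56111601 to 56117596), Cidec lies on chromosome 6 (113424634 to 113435760) and Plin2 on chromosome 4 (86648386 to 86670060). Capitals mark AGGTCA or its reverse complement TGACCT, the unit of the repeat that PPAR receptors bind.
Cidec: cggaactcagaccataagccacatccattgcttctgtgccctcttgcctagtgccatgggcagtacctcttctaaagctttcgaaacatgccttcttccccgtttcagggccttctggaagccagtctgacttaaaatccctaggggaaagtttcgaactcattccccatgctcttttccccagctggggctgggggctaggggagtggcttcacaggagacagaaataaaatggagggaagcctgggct
Plin4: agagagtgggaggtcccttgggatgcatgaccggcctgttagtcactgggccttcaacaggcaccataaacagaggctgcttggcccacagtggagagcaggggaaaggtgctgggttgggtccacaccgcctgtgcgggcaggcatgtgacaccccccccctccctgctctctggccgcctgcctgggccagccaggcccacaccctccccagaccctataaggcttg
Plin2: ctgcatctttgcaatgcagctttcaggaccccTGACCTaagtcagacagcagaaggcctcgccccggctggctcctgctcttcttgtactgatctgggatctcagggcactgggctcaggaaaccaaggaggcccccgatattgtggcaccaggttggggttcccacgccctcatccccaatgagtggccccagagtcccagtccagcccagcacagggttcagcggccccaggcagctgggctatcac
Plin5: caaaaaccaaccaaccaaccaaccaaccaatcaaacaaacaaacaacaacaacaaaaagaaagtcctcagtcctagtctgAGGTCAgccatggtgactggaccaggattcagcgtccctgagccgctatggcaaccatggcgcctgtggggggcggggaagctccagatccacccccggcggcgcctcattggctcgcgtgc
Both strands of the 250 bases were searched for AGGTCA and for its direct repeat, AGGTCA followed by any 1 base and AGGTCA again, which contains the single unit. AGGTCA was found once in the Plin2 window and once in the first of the Plin5 windows. It was in none of the other windows searched, and 14.0% of 32817 mouse windows of this length hold it. The direct repeat was in none of the 11 windows, and 0.0335% of all windows hold it. These matches describe the letters of the windows and nothing else.

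Reads assigned to genes numbered 21000799 to 41024101 per liver library and 17502377 to 23808051 per jejunum library. The tissues carried their own markers: 6 hepatocyte markers summed to at least 69461 CPM (read counts scaled to library size) in every liver library and 6 enterocyte markers to at least 13127 CPM in every jejunum library. Pancreas transcripts stood out in 2 liver libraries (WPI FAT-40 replicates 2 and 3) and 2 jejunum libraries (CAS FAT-55 replicate 3 and WPI FAT-40 replicate 4). Each library carries an animal identifier of its own within its tissue, so p-values measure the spread between mice. The identifiers without their last digit form 24 stems, 4 per diet, whose meaning is not given in the sources used here. Mice of 1 stem resembled each other (consensus correlation 0.16 in liver and 0.114 in jejunum), so 2 fits that take the stem as the unit are given where they end a call. Both tissues are bulk samples, so fewer cells of a type and less RNA per cell cannot be told apart.

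Compared per length, as RPKM (reads scaled to exon length and library size; mean ± SD), Plin2 was the most abundant of the genes in liver on CAS FAT-20 (156 ± 65.1), followed by G0s2 (104 ± 55.6) and Plin5 (32.0 ± 12.7). Plin2 and G0s2 lay within 1 SD of each other, and Plin5 lay below both. Fitm2, Cideb, Fitm1 and Plin3 lay between 23.5 and 8.32 RPKM. Cidec (6.18 ± 5.30) and Plin4 (4.99 ± 1.62) did not differ beyond their spread, and Cidea was last at 0.126 ± 0.104. On CAS FAT-55 the order changed: Cidec, at 32.7 ± 15.5 RPKM, stood behind only Plin2 and G0s2, and Cidea reached 8.83 ± 7.64. On WPI FAT-55 Cidec stood ninth at 6.01 ± 5.35 RPKM. In jejunum Plin3 led on CAS FAT-20 (72.6 ± 17.0), before Cidec (40.7 ± 13.0), Plin2 (20.1 ± 4.48) and Cideb, which lay within 1 SD of Plin2. Plin5 (0.0810 RPKM) and Fitm1 (0.0113 RPKM) were nearly silent there.

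In the liver, Plin3, Plin4 and Cidec rose with dietary fat on CAS more than on WPI, and Fitm1 and Cidea rose on both. Neither fit that takes the stem as the unit called those differences between the responses, or the Cidea rise on WPI. Between FAT-20 and FAT-55 on CAS, 5 of the 10 genes were higher (Plin3, Plin4, Cidea, Cidec and Fitm1) and Plin5 was lower, with p-values adjusted by Benjamini and Hochberg's method across the 15051 genes of the fit and a threshold of 0.05. In that comparison 43.2% of all genes passed and 22.5% were higher, so a count of 6 of 10 is not far from the background. The median log2 change of the 10 genes was 0.45, against -0.00 for all genes. On WPI Cidea and Fitm1 alone passed in the same step, where 26.5% of all genes passed.

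**Figure D1:**
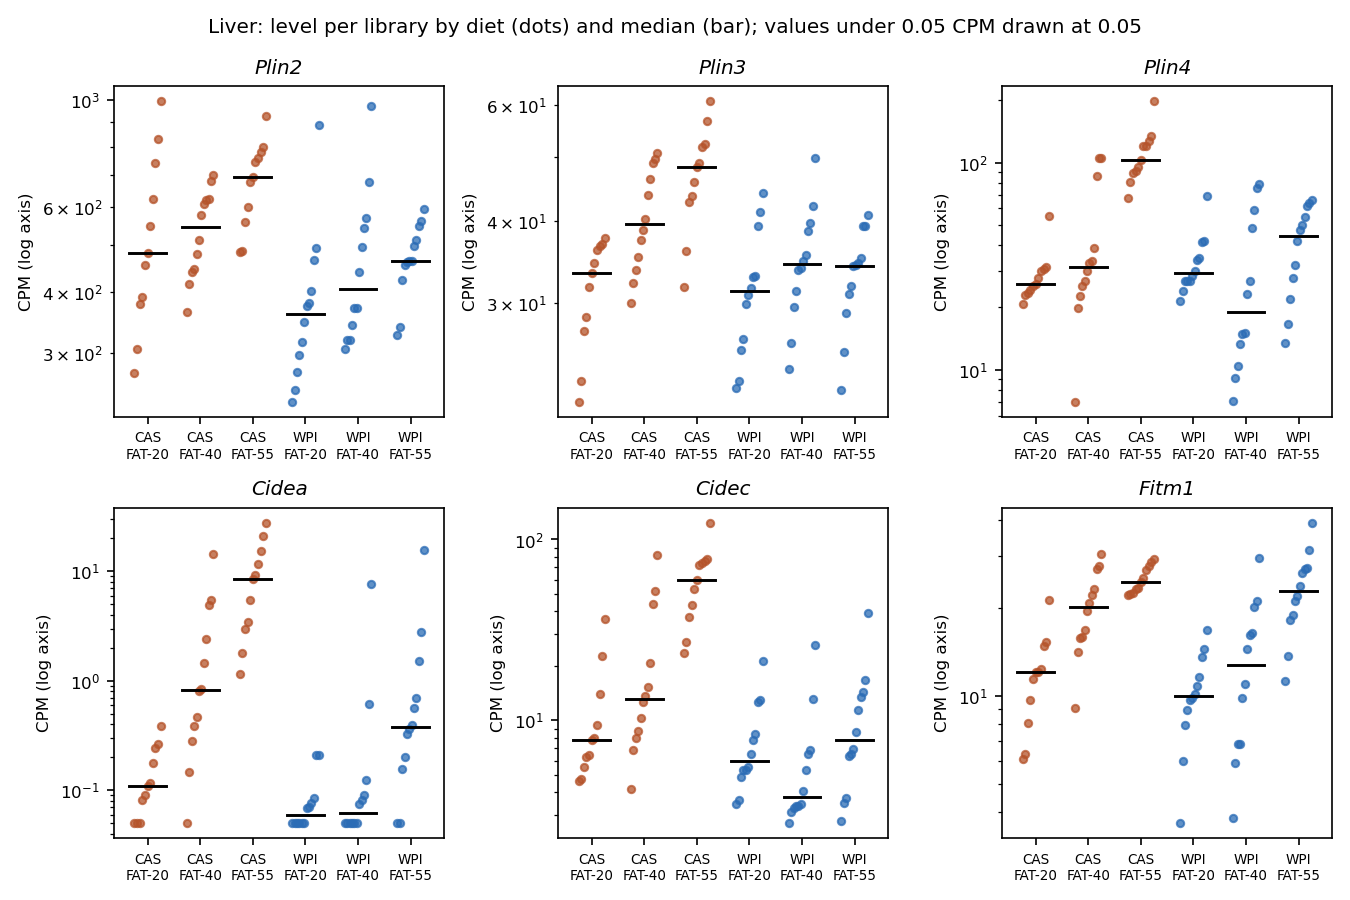
Level in liver of 6 of the genes (CPM, log axis) by diet, CAS diets in brown and WPI diets in blue. Each dot is 1 mouse and each bar a median of 11 or 12 mice; the Plin4 dots on CAS FAT-55 (67.6 to 198 CPM) sit above all dots of CAS FAT-20 and WPI FAT-55.

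Cidec had the largest fitted difference between the protein sources at FAT-55. On CAS its lowest, median and highest values were 4.64, 7.83 and 36.4 CPM at FAT-20, 4.16, 13.1 and 82.2 CPM at FAT-40, and 23.5, 59.4 and 124 CPM at FAT-55. The WPI values were 3.44, 6.00 and 21.4 CPM at FAT-20, 2.70, 3.77 and 26.1 CPM at FAT-40, and 2.79, 7.79 and 39.2 CPM at FAT-55. At FAT-55, 11 of 12 mice on WPI were below the lowest mouse on CAS. Cidec rose 5.28-fold between FAT-20 and FAT-55 on CAS (log2 change 2.40 ± 0.45, SE; adjusted p = 1.7e-05). The value on WPI was 0.44 ± 0.43 (adjusted p = 0.48). Averaged by stem, Cidec at FAT-55 was 48.9, 55.5, 64.4 and 70.2 CPM on CAS against 5.93, 10.5, 11.6 and 16.5 CPM on WPI. The stem means of 10.1% of all genes were likewise apart there. At FAT-40 on CAS the Cidec stem means were 7.74, 9.12, 16.5 and 59.4 CPM, so 1 stem stood far above the rest. On WPI FAT-40 they were 3.40, 4.18, 7.71 and 11.8 CPM.

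Plin4 followed the same shape from a higher base. On CAS its lowest, median and highest values were 20.8, 25.9 and 55.1 CPM at FAT-20, 6.99, 31.4 and 105 CPM at FAT-40, and 67.6, 103 and 198 CPM at FAT-55. The corresponding WPI levels were 21.4, 29.2 and 68.9 CPM at FAT-20, 7.03, 19.1 and 79.2 CPM at FAT-40, and 13.4, 44.4 and 65.6 CPM at FAT-55. All 11 mice on CAS FAT-55 were above every mouse on CAS FAT-20 and every mouse on WPI FAT-55. The groups of 4.65% of all genes were likewise apart in the first of these comparisons, and those of 0.159% in the second. The rise on CAS was 3.87-fold (log2 1.95 ± 0.35; adjusted p = 6.7e-06), and the value on WPI was 0.29 ± 0.32 (adjusted p = 0.55). At FAT-40 on CAS the Plin4 stem means were 22.0, 27.4, 29.4 and 98.7 CPM, so the high values came mainly from 1 stem.

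The same 2 genes rose again between FAT-40 and FAT-55 on CAS, where 3.59% of all genes passed. Plin4 changed by 1.33 ± 0.33 on the log2 scale (adjusted p = 0.013) and Cidec by 1.39 ± 0.42 (adjusted p = 0.047). Neither call held on sums per stem (adjusted p = 0.27 and 0.40), and that of Cidec was also lost without the filter on low counts (adjusted p = 0.089). On WPI, Fitm1 alone passed this step (2.15% of all genes did).

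At FAT-55, 5 of the 10 genes were lower on WPI than on CAS and none was higher, where 14.4% of all genes passed in either direction and 7.41% were lower. Cidec was 5.46-fold lower (log2 -2.45 ± 0.44; adjusted p = 0.00011) and Plin4 was 2.70-fold lower (log2 -1.43 ± 0.33; adjusted p = 0.0023). Plin2, Plin3 and Cidea were the others. With counts summed per stem (4 sums a diet), only Plin3 kept its call: the adjusted p was 0.053 for Cidec, 0.094 for Plin4, 0.25 for Cidea and 0.29 for Plin2. Plin2 alone lost it with the stem as a random effect (adjusted p = 0.096) or without the filter on low counts (adjusted p = 0.088).

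The difference between the responses to FAT-55 on the 2 proteins was tested directly. The response on WPI was smaller for Plin4 (log2 difference -1.66 ± 0.47; adjusted p = 0.024), Cidec (-1.96 ± 0.61; adjusted p = 0.04) and Plin3 (-0.52 ± 0.16; adjusted p = 0.039), that is 3 of 10 genes where 6.7% of all genes passed. DESeq2 and median-of-ratios scaling kept all 3. None of the 3 kept its call on sums per stem (adjusted p = 0.26, 0.29 and 0.23), with the stem as a random effect (0.077, 0.065 and 0.16) or without the filter on low counts (0.055, 0.086 and 0.085). No gene of the 10 passed the same test at FAT-40 with edgeR or DESeq2 (1.5% of all genes did with edgeR), and Cidec alone had an unadjusted p under 0.05. Of all 15051 genes, 2454 had such a p.

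**Figure D2:**
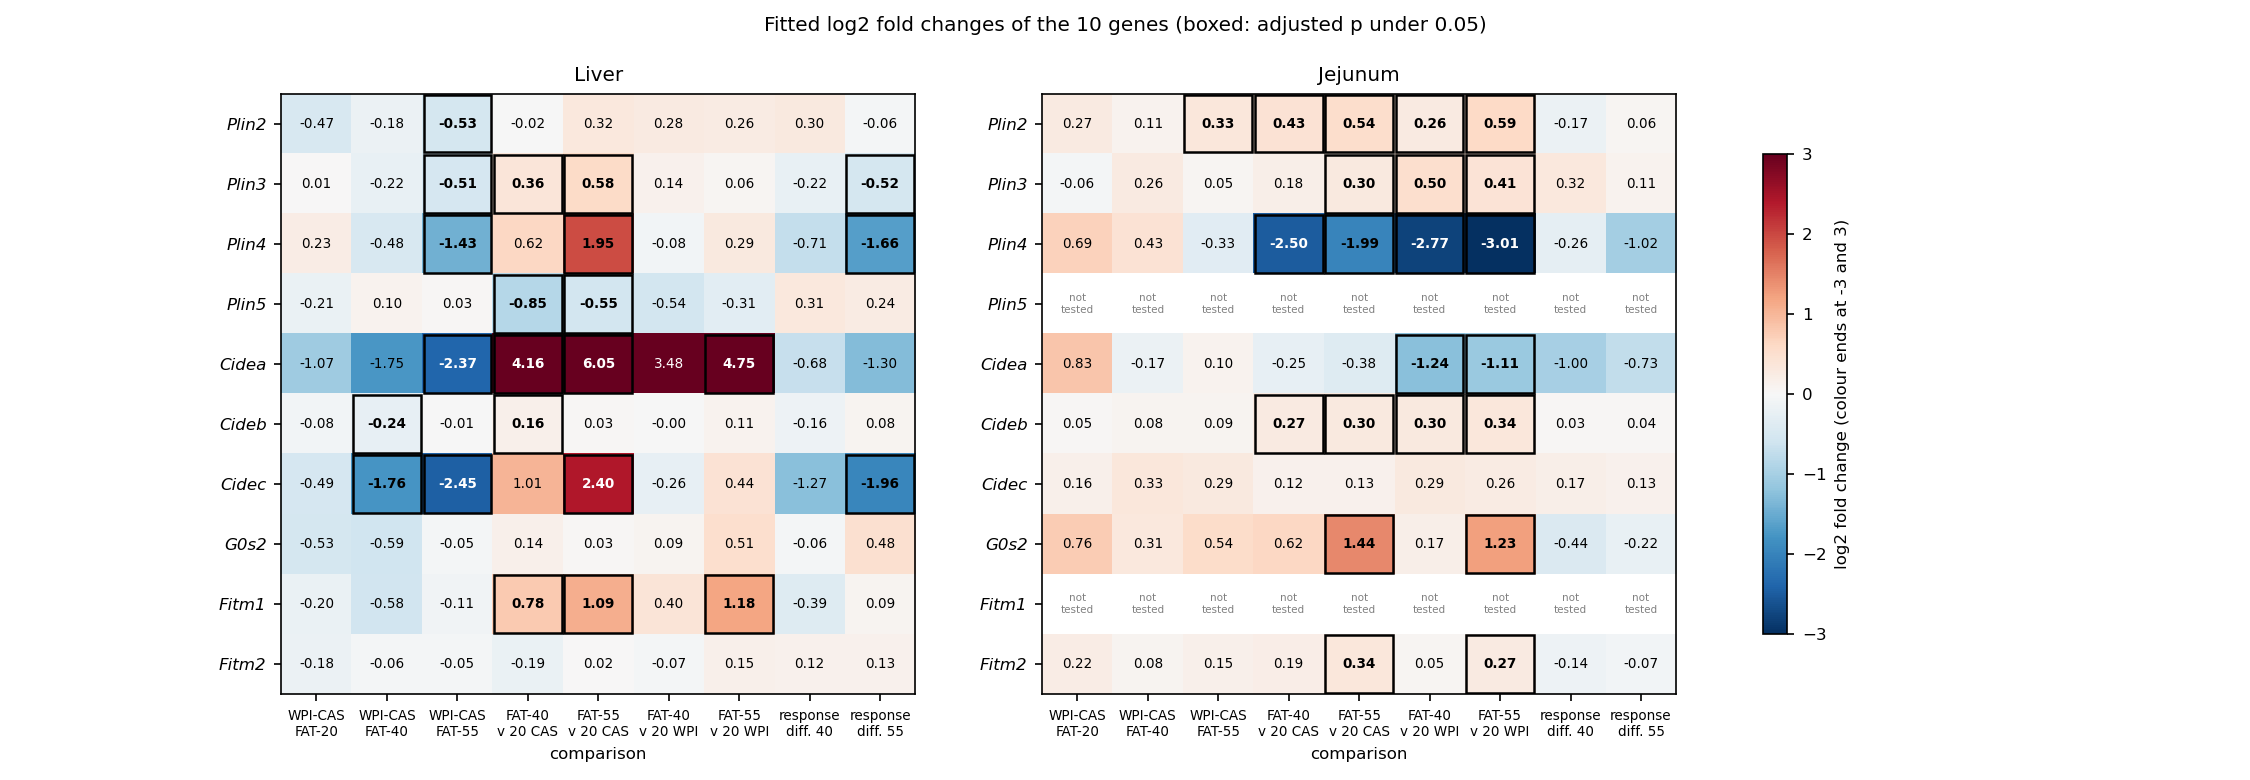
Fitted log2 fold change of each gene (rows) in 9 comparisons (columns) in liver, left, and jejunum, right; red is higher, blue is lower, and a box marks an adjusted p under 0.05. In liver the Plin3, Plin4 and Cidec rows are boxed in the column for the difference between the FAT-55 responses, and the Plin4 row of the jejunum is blue in all 4 fat comparisons.

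Cidea, the brown fat member of its family, went from almost no reads to a clear signal. Its lowest, median and highest values on CAS were 0, 0.109 and 0.386 CPM at FAT-20, 0.0350, 0.825 and 14.5 CPM at FAT-40, and 1.17, 8.55 and 27.9 CPM at FAT-55. For WPI they were 0, 0.0560 and 0.212 CPM at FAT-20, 0, 0.0596 and 7.70 CPM at FAT-40, and 0.0346, 0.378 and 15.6 CPM at FAT-55. Every mouse on CAS FAT-55 was above every mouse on CAS FAT-20, in a comparison where the groups of 4.65% of all genes did not overlap. At FAT-20 the medians lay near or below what 3 reads give in a liver library (0.0731 to 0.143 CPM), so the fitted changes of 6.05 ± 0.98 on CAS (adjusted p = 9.8e-07) and 4.75 ± 1.10 on WPI (adjusted p = 0.00073) depend on the prior count and are no measure of size.

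The Cidea levels at FAT-55 were 5.17-fold lower on WPI (log2 -2.37 ± 0.69; adjusted p = 0.014), and 9 of 12 mice on WPI were below the lowest mouse on CAS. WPI FAT-55 replicate 10, with 15.6 CPM, decided the size of this difference: the log2 ratio of group means was -2.38 with that library and -3.94 without it. The same ratio for the step from FAT-20 to FAT-55 on WPI moved from 4.81 to 3.26. The step to FAT-40 on CAS, called with a log2 change of 4.16 ± 0.99 (adjusted p = 0.00083), gave a ratio of 4.23, or 3.47 without CAS FAT-40 replicate 5. The Cidea stem means of CAS FAT-40 were 0.379, 0.546, 1.35 and 8.28 CPM, so 1 stem weighed heavily in this step. With the stem as a random effect this step was no longer called (adjusted p = 0.12), nor was the step to FAT-55 on WPI (adjusted p = 0.16), and on sums per stem both had an adjusted p of 0.052. The difference between the responses to FAT-55 was -1.30 ± 2.02 (adjusted p = 0.76).

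Plin2, the main coat protein of hepatocyte droplets, passed no comparison of fat levels in liver with edgeR or DESeq2. Its lowest, median and highest values on CAS were 273, 484 and 994 CPM at FAT-20, 364, 546 and 700 CPM at FAT-40 and 485, 691 and 926 CPM at FAT-55. On WPI they were 238, 361 and 887 CPM, 306, 406 and 968 CPM, and 327, 464 and 596 CPM in the same order. The groups overlapped at every fat level. On CAS, the log2 value for FAT-55 against FAT-20 was 0.32 ± 0.19 (adjusted p = 0.17). Plin2 was lower on WPI at FAT-55 (log2 -0.53 ± 0.18; adjusted p = 0.038) and over all fat levels (-0.39 ± 0.10; adjusted p = 0.0057).

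Plin3, a coat protein that shuttles between cytosol and droplets, rose on CAS in a narrow range. Its median went from 33.3 CPM at FAT-20 to 39.5 CPM at FAT-40 and 48.2 CPM at FAT-55, with a full range of 21.2 to 60.8 CPM over these groups. On WPI the medians were 31.3, 34.4 and 34.2 CPM. The log2 change on CAS was 0.36 ± 0.11 at FAT-40 (adjusted p = 0.011) and 0.58 ± 0.12 at FAT-55 (adjusted p = 4.9e-05), and the value on WPI at FAT-55 was 0.06 ± 0.11 (adjusted p = 0.73). At FAT-55 Plin3 was lower on WPI by 0.51 ± 0.11 on the log2 scale (adjusted p = 0.0015), with all 12 mice below the CAS median.

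Fitm1, known chiefly from muscle, rose with fat on both proteins. Its medians were 12.1, 20.2 and 24.6 CPM on CAS and 9.97, 12.7 and 22.9 CPM on WPI, in order of rising fat. All 11 mice on CAS FAT-55 (22.2 to 29.5 CPM) were above the highest of CAS FAT-20 (21.3 CPM; 4.65% of all genes were apart in that step), and on WPI 10 of 12 mice at FAT-55 were above the highest at FAT-20 (16.8 CPM). The rise to FAT-55 was 2.13-fold on CAS (log2 1.09 ± 0.23; adjusted p = 0.0001) and 2.27-fold on WPI (1.18 ± 0.22; adjusted p = 3.9e-05). The difference between these responses was 0.09 ± 0.32 (adjusted p = 0.91), with a 95% interval from -0.53 to 0.71 on the log2 scale. Fitm2, its broadly expressed relative, stayed between 52.9 and 128 CPM in all liver libraries and passed no liver comparison with edgeR or DESeq2. Fitm1 also passed the step from FAT-40 to FAT-55 on WPI (0.79 ± 0.22; adjusted p = 0.039), and lost that call without the 2 libraries with pancreas transcripts (adjusted p = 0.22), on sums per stem (0.40), with the stem as a random effect (0.14) and without the filter on low counts (0.078).

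Plin5, the coat protein of oxidative tissues, was the only one of the 10 called lower with fat in liver. Its lowest, median and highest values on CAS were 42.5, 58.9 and 128 CPM at FAT-20, 24.0, 36.2 and 60.2 CPM at FAT-40, and 28.9, 49.8 and 55.9 CPM at FAT-55. It fell by 0.85 on the log2 scale at FAT-40 (SE 0.21; adjusted p = 0.00099) and by 0.55 at FAT-55 (SE 0.21; adjusted p = 0.03). The second call was lost on sums per stem (adjusted p = 0.14), with the stem as a random effect (0.096) and without the filter on low counts (0.069). The value on WPI at FAT-55 was -0.31 ± 0.20 (adjusted p = 0.26).

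Between FAT-20 and FAT-40 on CAS, 5 of 10 genes passed (Plin3, Cidea, Cideb and Fitm1 higher, Plin5 lower), against 30.2% of all genes. On sums per stem Plin5 alone kept its call, and the adjusted p was 0.052 for Plin3 and Cidea, 0.093 for Cideb and 0.062 for Fitm1. Cideb also lost it with the stem as a random effect (adjusted p = 0.098) and without the filter (0.060). The Cidec value in that step was 1.01 ± 0.43 (adjusted p = 0.069). On WPI none of the 10 passed this step with edgeR, where 6.49% of all genes did. Plin5 and Cidea had an unadjusted p under 0.05 there (3109 of all 15051 genes did), and DESeq2 called Cidea. Its value with edgeR was 3.48 ± 1.21 (adjusted p = 0.069).

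At FAT-20 no gene of the 10 differed between the proteins in liver with edgeR or DESeq2, and 0.485% of all genes did with edgeR. Plin2 alone of the 10 had an unadjusted p under 0.05, with a log2 difference of -0.47 ± 0.18 (adjusted p = 0.22). Of all 15051 genes, 2043 had such a p. At FAT-40, Cidec (-1.76 ± 0.44; adjusted p = 0.0059) and Cideb (-0.24 ± 0.06; adjusted p = 0.004) were lower on WPI, where 8.07% of all genes passed. Neither call held on sums per stem (adjusted p = 0.19 and 0.072), and that of Cidec was also lost with the stem as a random effect (adjusted p = 0.076). Averaged over fat, 5 of 10 genes were lower on WPI and none higher, where 14.6% of all genes passed and 7.49% were lower. They were Cidec (-1.57 ± 0.25; adjusted p = 9e-06), Plin4 (-0.56 ± 0.19; adjusted p = 0.034), Plin2, Plin3 and Cideb. The values of Cidea (-1.73 ± 0.66), G0s2 (-0.39 ± 0.16) and Fitm1 (-0.29 ± 0.13) had adjusted p-values of 0.066, 0.089 and 0.12 with edgeR, and DESeq2 called Cidea as well (adjusted p = 0.0067). Plin4 lost this call without the 2 libraries with pancreas transcripts (adjusted p = 0.058) and without the filter on low counts (0.078). On sums per stem the calls of Plin4, Plin2 and Cideb were lost (adjusted p = 0.24, 0.16 and 0.07), and with the stem as a random effect those of Plin4 and Cideb (0.053 and 0.069).

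Cideb kept to a narrow range in liver. It lay between 22.1 and 38.2 CPM in all 70 libraries, and its calls were of at most 0.24 in size on the log2 scale. Of its exon length, 76.3% is shared with Nop9 on the opposite strand. The strand setting of the counting is not given in the sources used here, so how reads of the shared stretch were counted is not known. G0s2 ranged from 22.6 to 172 CPM with wide overlap between all diets and passed no liver comparison with edgeR or DESeq2.

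Fat cell markers were set beside these liver results because Plin4, Cidea and Cidec are fat cell genes. Summed over 7 white fat cell markers, the median level was 0.682, 1.91 and 3.88 CPM on CAS and 0.543, 0.649 and 1.89 CPM on WPI, in order of rising fat. Cfd, the protease adipsin, made up most of this movement, with medians of 0.0713, 1.42 and 2.94 CPM on CAS and 0, 0.107 and 1.38 CPM on WPI. The defining markers were near 0 in every liver library: Adipoq was at most 0.399 CPM, Plin1 at most 0.355 CPM and Lep at most 0.318 CPM. Of the brown fat markers, Ucp1 was at most 0.0478 CPM and Cox8b at most 0.106 CPM, while Elovl3, which liver itself expresses, had medians of 53.2 to 113 CPM. With the mean of all 7 markers as a covariate, 12 of the 31 liver calls remained. Of all 15051 genes, 3377 instead of 6507 were then called between FAT-20 and FAT-55 on CAS. Between the proteins at FAT-55 the count was 1254 instead of 2171. The rises to FAT-55 on CAS were then 0.58 for Cidec (adjusted p = 0.42), 0.96 for Plin4 (0.082) and 0.49 for Fitm1 (0.20). The Cidea values were 1.22 at FAT-40 on CAS (adjusted p = 0.28) and 1.19 at FAT-55 on WPI (0.42). Between the proteins, Cidec at FAT-40 was -0.89 (adjusted p = 0.20) and Plin4 over all fat levels -0.24 (0.50), while at FAT-55 Cidec, Plin4, Plin3 and Cidea kept their calls and Plin2 did not (0.11). The differences between the FAT-55 responses had adjusted p-values of 0.08 for Plin4, 0.11 for Cidec and 0.092 for Plin3. With the mean of the 6 markers other than Cfd, chosen after these values were seen, 30 of 31 remained, and the exception was the Cidec step from FAT-40 to FAT-55 on CAS (adjusted p = 0.065).

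Other genes of lipid handling, on lists chosen with earlier results of these data known, were counted in the same liver comparisons. Between FAT-20 and FAT-55 on CAS, where 22.5% of all genes were higher and 20.7% lower, 5 of 11 fatty acid synthesis genes were higher and 1 was lower (list median 0.55), among them Srebf1 (1.36 ± 0.23), the master regulator of that pathway. Of 12 triglyceride synthesis genes, 5 were higher and 1 lower (list median 0.12), led by Mogat1 (3.36 ± 0.41) and Gpat3 (1.28 ± 0.18). Of 24 PPAR and fatty acid oxidation genes, 14 were lower and 2 higher (list median -0.33), with Ehhadh at -1.86 ± 0.19. Of 14 droplet lipases, cofactors and other droplet proteins, 5 were lower and 1 was higher. With 43.2% of all genes called, the totals of 6 of 11, 6 of 12 and 6 of 14 are not far from the background. The lipase Pnpla2 changed by -0.39 ± 0.10 and the droplet enzyme gene Hsd17b11 by -0.67 ± 0.09.

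At FAT-55, where 7.41% of all genes were lower on WPI and 7.02% higher, fatty acid synthesis genes were lower on WPI in 4 of 11 cases and higher in none (list median -0.30), with Scd1 at -1.55 ± 0.31. Mogat1 was lower by 1.51 ± 0.35 on the log2 scale and was the only one of 12 triglyceride synthesis genes to pass. Of the 24 PPAR and oxidation genes, 9 were higher on WPI and 2 lower (list median 0.14). Apoa4, an apolipoprotein of triglyceride-rich particles, was lower by 1.35 ± 0.33 and was the only one of 10 lipoprotein genes to pass. Its response to FAT-55 also differed between the proteins (-1.73 ± 0.47; adjusted p = 0.017). The values of these list genes are from the main edgeR fit alone, and their fits by stem are not reported here. In that last test, 2 of 17545 genes passed on sums per stem and 108 of 15051 with the stem as a random effect.

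Within diets, liver mice with much Cidec also had much Plin4. After removal of the diet means from log2(CPM + 0.5), Pearson's r was 0.73 and Spearman's rho 0.74 over 70 mice (adjusted p = 8.11e-05 and 0.000122 by permutation within diets, over 73 pairs in both tissues). Without the 2 most extreme mice r was 0.69, and with stem means removed it was 0.67. Cidea went with Cidec (r = 0.63, rho = 0.48), and Fitm2 with Cidec (r = 0.60, rho = 0.56) and with Plin4 (r = 0.58, rho = 0.55). Plin5 also went with Plin4 (r = 0.39, rho = 0.40) and with Cidec (r = 0.35, rho = 0.37). With stem means removed, its r was 0.57 with Plin4 and 0.29 with Cidec, and the latter was not called. Plin2 stood apart from them: its r was -0.10 with Plin4 and 0.19 with Cidec, and it went with Plin3 (r = 0.51, rho = 0.56). With stem means removed, the r of Plin2 with Cidec was 0.55, so this pair depends on the level at which means are taken. In all, 31 of the 73 pairs passed on both measures, 20 in liver and 11 in jejunum. The share of passing pairs among other genes was not computed, so this count cannot tell whether the members go together more than other genes do.

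**Figure D3:**
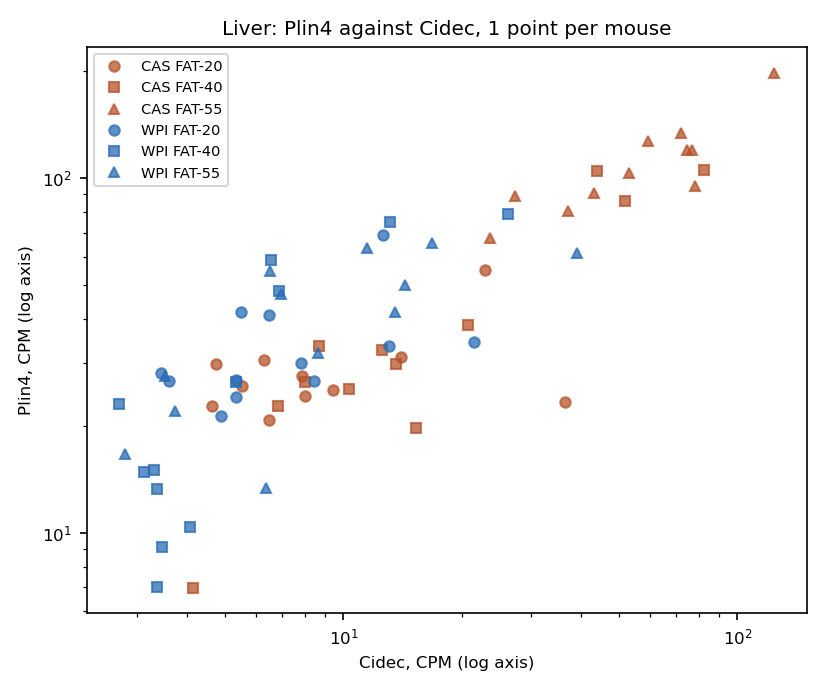
Plin4 against Cidec in liver (CPM, both axes log), 1 point per mouse, colour for the protein and shape for the fat level. Mice on CAS FAT-55 lie at the upper right together with 3 mice on CAS FAT-40, and Plin4 tends to be higher where Cidec is higher. On CAS FAT-40, 1 of 4 stem means stood far above the rest for each gene (98.7 CPM for Plin4, 59.4 CPM for Cidec).

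The liver genes most like each member, by Pearson's r over the 70 libraries after removal of diet means, are a description without test. For Cidec they were Apoa4 (r = 0.83), Cgref1 (0.80) and Atp9a (0.77), and for Plin4 they were Tkt (0.79), Cyp2c39 (0.75) and Ugt1a9 (0.74). Cfd (0.72), Adgrv1 (0.70) and Mogat1 (0.63) came closest to Cidea, and Mogat1 (0.80) was also second for Fitm1. Plin2 had Tjp3 (0.82), Slc16a1 (0.82) and Shtn1 (0.81). Pex11a, a peroxisome gene, was closest to Fitm2 (0.83), and Pole4 to Plin5 (0.88).

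In the jejunum, where absorbed fat passes through enterocyte droplets on its way to chylomicrons, 8 of the 10 genes had enough reads to be tested. Plin5 stayed at medians of 0.0853 to 0.246 CPM and Fitm1 at or below 0.245 CPM in every library, and neither passed the low-count filter. Between FAT-20 and FAT-55, Plin2, Plin3, Cideb, G0s2 and Fitm2 were higher on both proteins and Plin4 was lower on both. That made 6 of 8 genes on CAS, where 27.6% of all 16992 genes passed, and, with Cidea lower, 7 of 8 on WPI, where 30.6% passed. The step from FAT-20 to FAT-40 called Plin2, Cideb and Plin4 on CAS (3 of 8, against 25% of all genes) and Plin2, Plin3, Plin4, Cidea and Cideb on WPI (5 of 8, against 25.6%). In no jejunum comparison did Cidec pass with edgeR.

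**Figure D4:**
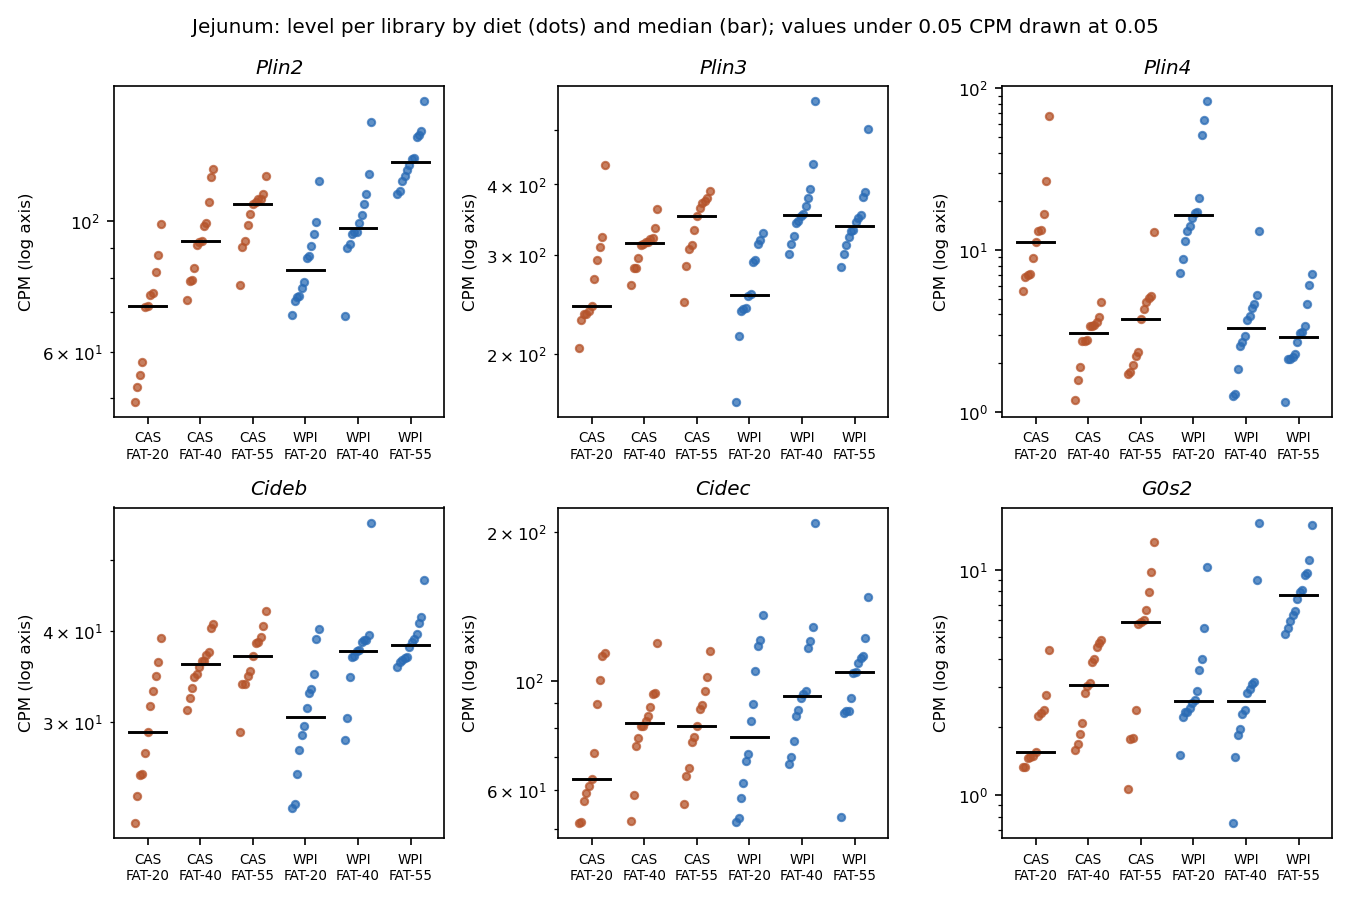
Level in jejunum of 6 of the genes (CPM, log axis) by diet, CAS diets in brown and WPI diets in blue. Each dot is 1 mouse and each bar a median of 11 or 12 mice; Plin2 medians run from 71.6 to 107 CPM on CAS and Plin4 medians from 11.2 to 3.76 CPM between FAT-20 and FAT-55.

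Plin2 was higher at both upper fat levels. Its lowest, median and highest values on CAS were 49.3, 71.6 and 98.9 CPM at FAT-20, 73.3, 92.4 and 123 CPM at FAT-40, and 78.0, 107 and 119 CPM at FAT-55. The WPI values were 69.3, 82.7 and 117 CPM at FAT-20, 68.9, 97.5 and 148 CPM at FAT-40, and 111, 126 and 160 CPM at FAT-55. At FAT-55, 9 of 12 mice on WPI were above the highest mouse on CAS. The rise to FAT-55 was 1.45-fold on CAS (log2 0.54 ± 0.10; adjusted p = 4.1e-05) and 1.51-fold on WPI (0.59 ± 0.09; adjusted p = 2.4e-06).

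Plin2 was also the only one of the 8 called higher on WPI with edgeR. The difference was 0.24 ± 0.05 over all fat levels (adjusted p = 0.0012; 15.2% of all genes passed) and 0.33 ± 0.10 at FAT-55 (adjusted p = 0.034; 3.63% passed). The latter was no longer called on sums per stem (adjusted p = 0.27), with the stem as a random effect (0.15) or without the filter on low counts (0.059). The means of the 4 stems were 122 to 135 CPM on WPI FAT-55 and 96.7 to 108 CPM on CAS FAT-55, and 4.98% of all genes were apart in this way. The values at FAT-20 and FAT-40 were 0.27 ± 0.10 and 0.11 ± 0.09 (adjusted p = 0.074 and 0.68). In liver at FAT-55 the same gene was lower on WPI (-0.53 ± 0.18). The 2 tissues come from separate tables, and the difference between them was not tested.

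No member passed the comparison of the proteins at FAT-20 with edgeR (6.15% of all genes did) or at FAT-40 (0.53%). At FAT-20, 4 genes had an unadjusted p under 0.05 and DESeq2 called 1 (Cidea), and at FAT-40 the counts were 2 and 0. For all 16992 genes these counts were 3209 and 1261 at FAT-20 and 2117 and 175 at FAT-40. Over all fat levels, Cidec (0.26 ± 0.10; adjusted p = 0.051) and G0s2 (0.54 ± 0.20; adjusted p = 0.055) were just outside the threshold, and DESeq2 called both beside Plin2. The steps from FAT-40 to FAT-55 called none of the 8 with edgeR or DESeq2 (0.0118% of all genes on CAS and 0.63% on WPI with edgeR), with 1 and 3 genes at an unadjusted p under 0.05. Of all genes, 1090 on CAS and 1983 on WPI had such a p. On WPI the Plin2 value of that step was 0.33 ± 0.09 (adjusted p = 0.067). The tests of a difference between the responses on the 2 proteins called none of the 8 with either tool (0.0118% of all genes at FAT-40 and 0 at FAT-55). Unadjusted, 2 of the 8 at FAT-40 and 0 at FAT-55 had a p under 0.05, against 1300 and 993 of all 16992 genes.

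Plin3 was the most abundant coat gene of the jejunum, with medians of 244, 315 and 352 CPM on CAS and 255, 354 and 338 CPM on WPI. It rose by 0.30 ± 0.10 on CAS at FAT-55 (adjusted p = 0.019) and by 0.50 ± 0.10 and 0.41 ± 0.10 on WPI at FAT-40 and FAT-55 (adjusted p = 0.00012 and 0.00058). Cideb rose by 0.27 to 0.34 on the log2 scale in all 4 steps from FAT-20. Its Nop9 overlap applies here too. Fitm2 rose by 0.34 ± 0.11 on CAS and 0.27 ± 0.10 on WPI at FAT-55. On sums per stem the calls of Cideb at FAT-40 on CAS and of Fitm2 at FAT-55 on WPI were lost (adjusted p = 0.062 and 0.079), as was that of Plin2 at FAT-40 on WPI (adjusted p = 0.13). The last 2 were also lost with the stem as a random effect (0.064 for Fitm2 and 0.074 for Plin2) and without the filter (0.052 and 0.057).

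G0s2, the Pnpla2 inhibitor, had the largest rise of the 8. Its lowest, median and highest values were 1.33, 1.56 and 4.40 CPM on CAS FAT-20 and 1.06, 5.84 and 13.3 CPM on CAS FAT-55. The corresponding WPI levels were 1.51, 2.61 and 10.3 CPM at FAT-20 and 5.17, 7.70 and 15.7 CPM at FAT-55. At FAT-40 the medians were 3.08 CPM on CAS and 2.61 CPM on WPI. The rise to FAT-55 was 2.72-fold on CAS (log2 1.44 ± 0.36; adjusted p = 0.0021) and 2.34-fold on WPI (1.23 ± 0.34; adjusted p = 0.0038), with all 12 mice on WPI FAT-55 above the WPI FAT-20 median.

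Plin4 went the other way, and fat cell markers went with it. Its lowest, median and highest values on CAS were 5.57, 11.2 and 67.0 CPM at FAT-20, 1.19, 3.08 and 4.80 CPM at FAT-40, and 1.72, 3.76 and 12.9 CPM at FAT-55. For WPI they were 7.23, 16.3 and 83.2 CPM at FAT-20, 1.26, 3.32 and 13.0 CPM at FAT-40, and 1.15, 2.88 and 7.13 CPM at FAT-55. All mice on CAS FAT-40 lay below all mice on CAS FAT-20 (0.689% of all genes were apart in this way), and likewise on WPI at FAT-55 (0.589%). The log2 changes on CAS were -2.50 ± 0.41 at FAT-40 and -1.99 ± 0.41 at FAT-55 (adjusted p = 1.9e-05 and 0.00027). On WPI they were -2.77 ± 0.41 and -3.01 ± 0.41 (adjusted p = 4.3e-06 and 2.2e-07). The difference between the 2 responses to FAT-55 was -1.02 ± 0.56 (adjusted p = 0.87).

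The 7 white fat cell markers summed to medians of 26.0, 8.21 and 8.21 CPM on CAS and 40.1, 8.07 and 9.37 CPM on WPI, in order of rising fat, with a full range of 11.1 to 253 CPM at FAT-20. Adipoq, the fat cell hormone, had medians of 4.52 CPM on CAS FAT-20 and 9.03 CPM on WPI FAT-20 and of 0 in the other 4 diets. Lgals12, another of the 7, did not follow this fall: its medians lay between 5.73 and 7.92 CPM in all diets. It made up most of the sum left at FAT-40 and FAT-55. The 10 smooth muscle markers summed to medians of 1305 and 1479 CPM at FAT-20 and of 613 to 806 CPM in the other diets. Within diets, jejunal Plin4 went with the white fat score (r = 0.86, rho = 0.70, adjusted p = 0.00018 for both over 36 relations; r = 0.81 without the 2 most extreme mice) and with the smooth muscle score (r = 0.65, rho = 0.69). With both scores as covariates the Plin4 changes were 0.05 and 0.11 on CAS and -0.01 and -0.08 on WPI, and no Plin4 call remained. Among the nearest genes to Plin4 by r were Aoc3 (0.90) and Plin1 (0.85), and Plin1 is the coat protein of fat cells.

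**Figure D5:**
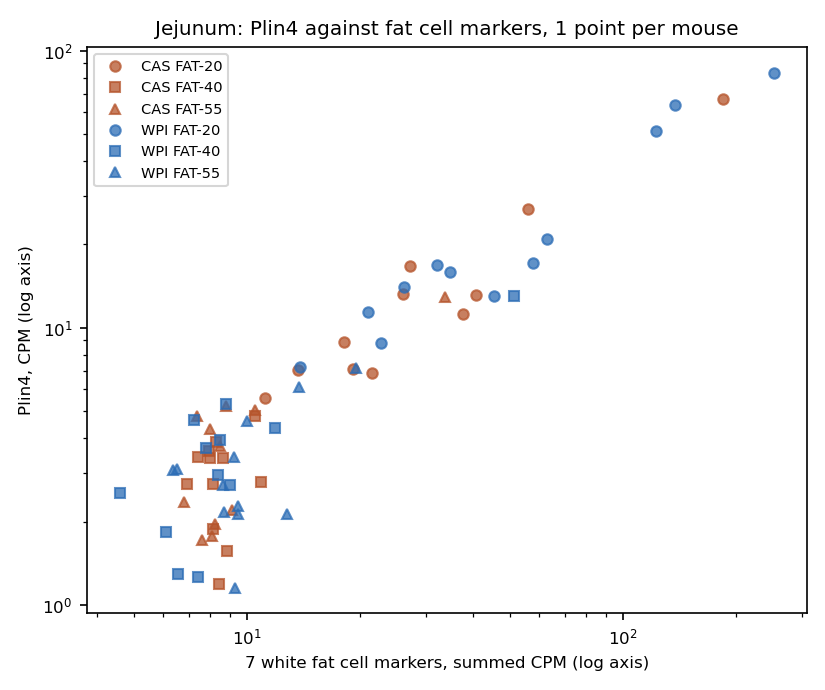
Jejunal Plin4 (CPM, log axis) against the summed level of 7 white fat cell markers (CPM, log axis), 1 point per mouse. FAT-20 mice reach up to 83.2 CPM of Plin4 at the right, and most FAT-40 and FAT-55 mice lie at the lower left, with single mice of CAS FAT-55 and WPI FAT-40 near 13.0 CPM.

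The smooth muscle score also moved beside other jejunum results. Within diets, Plin2 (r = -0.42), Fitm2 (r = -0.35), Cideb (r = -0.35) and Plin3 (r = -0.30) ran against it, all at an adjusted p under 0.05, and the r of G0s2 was -0.26 (adjusted p = 0.14). With the white fat score the r of these 5 genes lay between -0.27 and 0.09, none at an adjusted p under 0.05. With both scores as covariates, 5 of the 23 jejunum calls remained. Most calls among all 16992 genes were lost as well. At FAT-40 the all-gene count went from 4240 to 183 on CAS and from 4356 to 11 on WPI. At FAT-55 it went from 4690 to 1101 and from 5207 to 195, so the losses are not particular to these genes. At FAT-55 the Plin2 rise on CAS was still called, and so was that of G0s2. On WPI the Plin2 rise was called and the G0s2 value was 1.23 as before, but with an adjusted p of 0.20. The Cideb changes were 0.09 to 0.14 with the scores, and no call of Cideb, Plin3 or Fitm2 remained. The markers were high at FAT-20 on both proteins, so marker level and fat level cannot be told apart.

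Jejunal Cidea was low throughout, with medians of 0.302 to 0.620 CPM. Within WPI it was lower than at FAT-20 both at FAT-40 (log2 -1.24 ± 0.29; adjusted p = 0.0012) and at FAT-55 (-1.11 ± 0.29; adjusted p = 0.002), and neither was called with the scores as covariates (adjusted p = 0.72 and 0.82). Jejunal Cidec, second only to Plin3 per length, had medians of 63.2, 81.9 and 80.9 CPM on CAS and 77.0, 93.1 and 104 CPM on WPI.

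Of the other lipid genes in jejunum at FAT-55, where 14.3% of all genes were higher on CAS and 14.2% on WPI, lipoprotein assembly genes were higher in 8 of 10 cases on CAS and 9 of 10 on WPI, with none lower (list medians 0.33 and 0.41). Apoa4 changed by 0.97 ± 0.23 and 1.26 ± 0.22. PPAR and fatty acid oxidation genes were higher in 11 of 22 on CAS and 13 of 22 on WPI, with 0 and 1 lower. Fatty acid synthesis genes leaned the other way, where 13.3% of all genes were lower on CAS and 16.5% on WPI. Of 12, 5 were lower and 3 higher on CAS, and 8 lower and 3 higher on WPI (list medians -0.33 and -0.61). Triglyceride synthesis genes were higher in 6 of 11 on CAS and 4 of 11 on WPI, with 1 and 2 lower. The droplet enzyme gene Hsd17b11 changed by 0.76 ± 0.14 and 0.83 ± 0.13, and Plin1 by -3.51 ± 0.84 and -5.04 ± 0.85. Acsl3, which makes acyl-CoA at young droplets, was higher on WPI than on CAS at FAT-55 (1.05 ± 0.18; adjusted p = 0.00024). The values of these list genes, too, are from the main edgeR fit alone.

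The pairs of members with the highest r within diets in jejunum were these. G0s2 went with Fitm2 (r = 0.72, rho = 0.60), Plin3 with Cidec (r = 0.70, rho = 0.67) and with Cideb (r = 0.69, rho = 0.53), and Plin2 with Fitm2 (r = 0.64, rho = 0.54). With stem means removed, r was 0.74, 0.83, 0.73 and 0.54 in the same order. The pair of Plin2 and Fitm2 was then not called (rho = 0.36, adjusted p = 0.0506 by permutation within stems). Whether the 2 tissues differ in these pairs was not tested. The genes most like jejunal Plin2 were Acaa1b (r = 0.84), Retsat (0.83) and Dhrs4 (0.81), and those most like Cidec were Specc1l (0.83), Creb3l3 (0.82) and Abhd2 (0.82).

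In the same mice, the liver and jejunum levels were compared for the 8 genes tested in both tissues, after removal of diet means. For Cidec, r was 0.35 (p = 0.00284, adjusted p = 0.0227) and rho was 0.32 (p = 0.0076, adjusted p = 0.0608) over 70 mice, by permutation within diets. Without the 2 mice farthest from the liver median r was 0.37. The adjusted p of the rank measure missed 0.05, so the relation passed on 1 of 2 measures. Without the mouse of uncertain pairing, chosen after seeing the data, r was 0.35 (adjusted p = 0.0266) and rho 0.33 (adjusted p = 0.0537). The r of the other 7 genes lay between -0.07 and 0.26, none with an adjusted p under 0.05.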

How the data were processed

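Whole-number read counts per gene were deposited by the authors for 70 liver and 70 jejunum libraries. The submitters' processing notes name STAR, DESeq2, Trim Galore, cutadapt and FastQC, and the build GRCm38; the strand setting and the annotation used for counting are not given in the sources used here. Rows naming no gene (20.0 to 29.0% of liver reads, 19.8 to 36.4% of jejunum reads) were left out. Identifiers were matched to symbols with a separate list of gene names, which held a symbol for 55450 of the 55536. GENCODE M21 gave exon lengths for RPKM.

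Counts were fitted in each tissue with edgeR 4.0.16 (R 4.3.3): TMM scaling, filterByExpr (minimum count 10, total 15), robust quasi-likelihood tests and 12 contrasts, with Benjamini-Hochberg adjustment over all tested genes and a threshold of 0.05. CPM are TMM-scaled. The counts were refitted with DESeq2 1.42.0, without the filter, with median-of-ratios scaling, as sums per identifier stem, with limma 3.58.1 voom and the stem as a random effect, and with marker scores as covariates; ratios of group means were recomputed with each library left out. The scripts were tested on simulated counts. Correlations used log2(CPM + 0.5) without diet means and 100000 permutations within diets, whose smallest p is 1e-05. The 10 genes and all lists were chosen with earlier results of these data known. The genes named beyond them were the leading called genes of each list and the 3 nearest genes to each member by r; some genes that this rule gives are not reported here.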

Additional observations from a re-analysis of the deposited data

Results flagged for a closer look

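The tests of a difference between the responses to FAT-55 on the 2 proteins singled out 3 liver genes. Plin4 changed by 1.95 ± 0.35 on CAS, the value on WPI was 0.29 ± 0.32, and the log2 difference was -1.66 ± 0.47. For Cidec the values were 2.40 ± 0.45 on CAS and 0.44 ± 0.43 on WPI, with a difference of -1.96 ± 0.61. For Plin3 they were 0.58 ± 0.12 and 0.06 ± 0.11, with a difference of -0.52 ± 0.16. The adjusted p-values lay between 0.024 and 0.04 with edgeR, and none of the 3 passed on sums per stem or with the stem as a random effect.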

How the results depend on the processing

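DESeq2 and median-of-ratios scaling kept all 31 liver and 23 jejunum calls. Without the low-count filter 22 and 20 remained, on sums per stem 10 and 19, with the stem as a random effect 19 and 20, and without the libraries with pancreas transcripts 29 and 23. The last setting and the white fat score without Cfd were chosen after seeing the data. On sums per stem the liver counts of genes called were 2 for WPI against CAS over all fat levels, 0 at FAT-40 and 1 at FAT-55, 1 for FAT-40 and 0 for FAT-55 against FAT-40 on CAS, and, on WPI, 1 for FAT-55 against FAT-20 and 0 against FAT-40. Over all 17545 genes of that fit the counts were, in the same order, 710, 63, 204, 2736, 0, 2144 and 0. With the white fat score the 10 genes gave 3, 1 and, for the fat steps on CAS, 2, 3 and 0, and 1 and 0 on WPI. All 15051 genes gave 1286, 783, then 3330, 3377 and 169, and 2724 and 113. With the stem as a random effect the 10 genes gave 1 at FAT-40 between proteins, 3 for FAT-40 on CAS, and 1 and 0 on WPI. All 15051 genes gave 473, 3276, 2767 and 0. FAT-55 against FAT-40 called 1 on CAS without the filter or with the score without Cfd, and 0 on WPI without the filter or the pancreas libraries. DESeq2 called 1 for FAT-40 on WPI. The difference between responses to FAT-55 called 0 without the filter, on sums per stem, with the score and with the random effect. Over all genes it called 488 of 33569, 2 of 17545, 487 of 15051 and 108 of 15051 in the same order. The main fit called 1009 of 15051, so calls were lost among all genes too. In jejunum, WPI against CAS called 3 over all fat levels with DESeq2, median-of-ratios scaling or without the pancreas libraries, 1 at FAT-20 with DESeq2 or the scores, and 0 at FAT-55 without the filter, on sums per stem or with the random effect. At FAT-55 these last settings called 450 of 36728, 61 of 19838 and 106 of 16992 genes. With both scores the fat steps called 0 and 2 on CAS, 0 and 1 on WPI, and 1 for FAT-55 against FAT-40 on WPI, as did the random effect. Over all 16992 genes both scores gave 183 and 1101 on CAS, 11 and 195 on WPI, and 127 for the last step. The random effect gave 27 for that step. With the scores, 16 uncalled liver values, 9 uncalled jejunum values and 2 called jejunum values changed sign, among them liver Cidec at FAT-40 on CAS (-0.36), liver Plin3 (-0.019), Plin4 (-0.34) and Cidec (-0.80) at FAT-55 on WPI, and jejunal Plin4 at FAT-40 (0.048) and FAT-55 (0.11) on CAS. The cause was not tested. No paired analysis was possible because each diet was fed to different mice and replicate numbers only follow the order of the libraries. At this depth, 3 reads correspond to 0.0731 to 0.143 CPM in liver and 0.126 to 0.171 CPM in jejunum, which limits Cidea in liver at FAT-20 and Plin5 and Fitm1 in jejunum.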
